A study of Mus musculus with 14 samples.

Results

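The genes described here encode the machinery that makes peptides and presents them on major histocompatibility complex (MHC) class I molecules. They were chosen by name and are *B2m*, *H2-D1*, *H2-K1*, *Tap1*, *Tap2*, *Tapbp*, *Psmb8*, *Psmb9*, *Psmb10* and *Psme1*. All 10 were among the 13866 genes listed in the count table and among the 11852 genes that passed the filter on low counts. Their RNA was measured in 14 mouse brains of 19 days in a design of 2 genotypes and 2 treatments. WT mice were C57BL/6JOlaHsd, and MyTrMaSt null mice lack 4 adaptors of innate immune sensing (*Myd88*-/-, *Trif*-/-, *Mavs*-/-, *Tmem173*-/-). Mice received daily injections of 100 mg/kg body weight conduritol B-epoxide (CBE) or of PBS. CBE irreversibly inhibits acid beta-glucosidase and so serves as a chemical model of neuronopathic Gaucher disease, in which neuroinflammation includes an interferon (IFN) response. The comparison of the 2 genotypes asks which of the changes after CBE depend on the deleted adaptors. The groups, written WT + CBE and so on, held 5 mice for MyTrMaSt + CBE and 3 mice for each of the others, with 1 library from each mouse.

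Total counts per library ranged from 1290616 in WT + PBS replicate 1 to 3704691, and the other 13 libraries held at least 1637001. WT + PBS replicate 1 stood apart from the rest. In that library, the 2240 genes of lowest transcript GC content (33.1% to 45.1%) read a median of 0.85 lower on the log2 scale than in the other 2 WT + PBS libraries, and the 2239 of highest GC content (56.5% to 72.8%) read 0.53 higher. All 3 WT + PBS libraries had Y-linked counts and no *Xist*, and all 3 MyTrMaSt + PBS libraries had *Xist* and at most 1 Y-linked count, so genotype and sex cannot be told apart between the PBS groups. WT + CBE replicate 2 and MyTrMaSt + CBE replicate 4 had 44 and 48 Y-linked counts, against at most 2 in the other CBE libraries. Sex was thus also not balanced between WT + PBS and WT + CBE, a comparison that is part of the interaction as well. The 4 inactivated genes were still counted in MyTrMaSt libraries. Between the PBS groups *Myd88* was lower there (3.11 to 4.49 against 9.95 to 17.2 CPM), *Ticam1* (Trif) and *Mavs* overlapped with WT, and *Tmem173* was higher (5.02 to 7.05 against 0.903 to 2.49 CPM). The tags come from transcript 3' ends and the sources used here do not say which exons are missing, so these counts do not check the genotype labels.

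MHC class I molecules are built from a polymorphic heavy chain, here H2-K1 or H2-D1, and the invariant light chain beta-2 microglobulin. Peptides cut by the proteasome are pumped into the endoplasmic reticulum by the TAP transporter and loaded with the help of tapasin. Under IFN, cells replace the catalytic subunits of the constitutive proteasome with the immunosubunits LMP7, LMP2 and MECL-1 and add the PA28 cap. In the healthy brain, class I RNA is mainly found in microglia and vascular cells, and neurons carry little of it.

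Of the 10 genes, 7 lie in the MHC region of chromosome 17 (mm10, GENCODE M21 gene bounds). From one end to the other these are *Tapbp* (chr17:33915899-33929292), *H2-K1* (chr17:33996017-34000347), *Psmb9* (chr17:34181987-34187764), *Tap1* (chr17:34187553-34197225), *Psmb8* (chr17:34197721-34201454) and *Tap2* (chr17:34203527-34216321), and *H2-D1* (chr17:35262730-35267499) follows further along. *B2m* lies at chr2:122147686-122153083, *Psmb10* at chr8:105935735-105938444 and *Psme1* at chr14:55578123-55581529. *Tap1* and *Psmb9* face away from each other and share 212 bases of exon on opposite strands, while *Psmb8* and *Tap2* share exon with the antisense gene *Gm20496*. *Tapbp* shares 904 bases of exon with the antisense gene *Gm19412* and 149 bases with *Zbtb22* on the same strand. *Tap2* shares 533 bases with *Gm15821* and *Psme1* shares 14 bases with *Emc9*, both on opposite strands. The sources used here do not give the use of strand in counting, so the reads of such partners may not have been separated. *H2-K1* and *H2-D1* belong to a family of near-identical genes, and only reads that map once were kept, so their counts are uncertain in that respect.

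The start regions of 9 of the 10 genes were found in the RefSeq promoter set (GRCm38.p6), each window running from 250 bases before to 50 bases after the start. Those of *H2-K1*, *H2-D1*, *B2m*, *Tap1* and *Psmb8* are shown because they are the heavy and light chains of the class I molecule and the 2 genes with the largest fold change after CBE in WT mice. Capitals mark 4 letter strings searched on both strands, namely the IFN-stimulated response element, the shorter class I form of it (GAANNGAAA), the class I enhancer A and a kappaB string.
*H2-K1* (chr17:34000284-34000583, minus strand): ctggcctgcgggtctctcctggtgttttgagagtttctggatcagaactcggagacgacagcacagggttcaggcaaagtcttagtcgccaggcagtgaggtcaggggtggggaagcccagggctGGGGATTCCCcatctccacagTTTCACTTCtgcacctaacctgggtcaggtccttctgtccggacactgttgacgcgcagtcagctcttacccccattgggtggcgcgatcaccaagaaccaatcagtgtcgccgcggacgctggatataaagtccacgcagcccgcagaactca
*H2-D1* (chr17:35262844-35263143, plus strand): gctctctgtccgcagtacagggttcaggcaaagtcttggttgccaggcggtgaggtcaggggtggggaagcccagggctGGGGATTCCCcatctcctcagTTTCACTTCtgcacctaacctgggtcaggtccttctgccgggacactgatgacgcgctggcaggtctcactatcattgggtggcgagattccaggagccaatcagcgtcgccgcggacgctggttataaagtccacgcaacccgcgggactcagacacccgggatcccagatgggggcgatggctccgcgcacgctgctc
*B2m* (chr2:122147437-122147736, plus strand): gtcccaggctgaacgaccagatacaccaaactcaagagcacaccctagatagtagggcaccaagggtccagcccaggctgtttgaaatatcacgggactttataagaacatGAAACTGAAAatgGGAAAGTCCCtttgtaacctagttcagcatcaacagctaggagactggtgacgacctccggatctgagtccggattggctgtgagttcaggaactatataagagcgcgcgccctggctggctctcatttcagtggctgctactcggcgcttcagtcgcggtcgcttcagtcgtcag
*Tap1* (chr17:34187306-34187605, plus strand): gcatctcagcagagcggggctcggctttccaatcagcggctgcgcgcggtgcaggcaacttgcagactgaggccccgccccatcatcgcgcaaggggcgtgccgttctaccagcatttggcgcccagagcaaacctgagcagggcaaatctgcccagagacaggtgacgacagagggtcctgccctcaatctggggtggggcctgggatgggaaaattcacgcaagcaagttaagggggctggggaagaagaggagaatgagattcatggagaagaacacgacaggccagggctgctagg
*Psmb8* (chr17:34197945-34198244, plus strand): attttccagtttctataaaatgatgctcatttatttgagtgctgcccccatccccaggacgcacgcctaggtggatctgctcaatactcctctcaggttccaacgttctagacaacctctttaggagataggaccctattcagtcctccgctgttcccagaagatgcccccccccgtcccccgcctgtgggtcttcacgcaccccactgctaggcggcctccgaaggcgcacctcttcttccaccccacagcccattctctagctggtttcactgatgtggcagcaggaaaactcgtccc
The enhancer A string and the short class I form lay close together in both heavy chain genes, at -125 and -104 from this start in *H2-K1* and at -171 and -150 in *H2-D1*. Enhancer A is rare, being held by 0.107% of the 32851 windows of the set, while the short class I form is held by 7.52%. *B2m* held the longer element at -139, which 3.44% of windows hold, and the kappaB string at -126, which 1.63% hold. *Psme1* held the longer element and the short form just after its start, in overlapping positions. None of the 4 strings was present in the windows of *Tap1*, *Tapbp*, *Psmb8*, *Psmb9* and *Psmb10*, which says only that those letters are not in these windows. *Tap1* and *Psmb9* share 275 bases of window, read from opposite strands. The string TTCNNNGAA of IFN-gamma activated sites, held by 8.3% of windows, was present in *Psmb8* alone among the 9, at -97. The X2 box string TGACGC, held by 7.4% of windows, was present in *H2-K1* and *H2-D1*, and the Y box string ATTGG, held by 37.4%, was present in 6 of the 9.

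Levels are counts scaled to library size (CPM, with TMM factors), and fold changes come from edgeR's quasi-likelihood fit to all 14 libraries, with p-values adjusted over the 11852 genes. A gene was called differentially expressed (DE) at a change of 2-fold or more and an adjusted p under 0.05. In WT mice CBE elevated 8 of the 10 genes, namely *B2m*, *H2-D1*, *H2-K1*, *Tap1*, *Tap2*, *Tapbp*, *Psmb8* and *Psmb9*, against 5.20% of all tested genes that were DE and higher. All 10 had WT + CBE libraries wholly above WT + PBS, against 15.1% of all genes. The median log2 fold change was 2.73 over the 10 genes and -0.018 over all tested genes. In MyTrMaSt null mice CBE elevated 3 of the 10, namely *H2-K1*, *Tap2* and *Psmb8*, against 3.23% of all genes, with a median of 0.72 over the 10. In 7 of the 10 the MyTrMaSt + CBE libraries were wholly above MyTrMaSt + PBS, against 11.8% of all genes. Between the CBE groups 8 of the 10 were DE and lower in MyTrMaSt + CBE, against 1.93% of all genes, with a median of -2.63. Between the PBS groups *H2-K1* was DE and lower in MyTrMaSt + PBS, against 0.127% of all genes. The difference between the genotypes in the response to CBE (the interaction) passed for *H2-D1*, *H2-K1*, *Tap1*, *Tapbp* and *Psmb8*, which is 5 of the 10 against 0.413% of all genes with a smaller response in MyTrMaSt. These comparisons share groups, so they are not independent of each other. RNA of whole brain cannot tell more cells of a type from more RNA per cell.

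**Figure D1:**
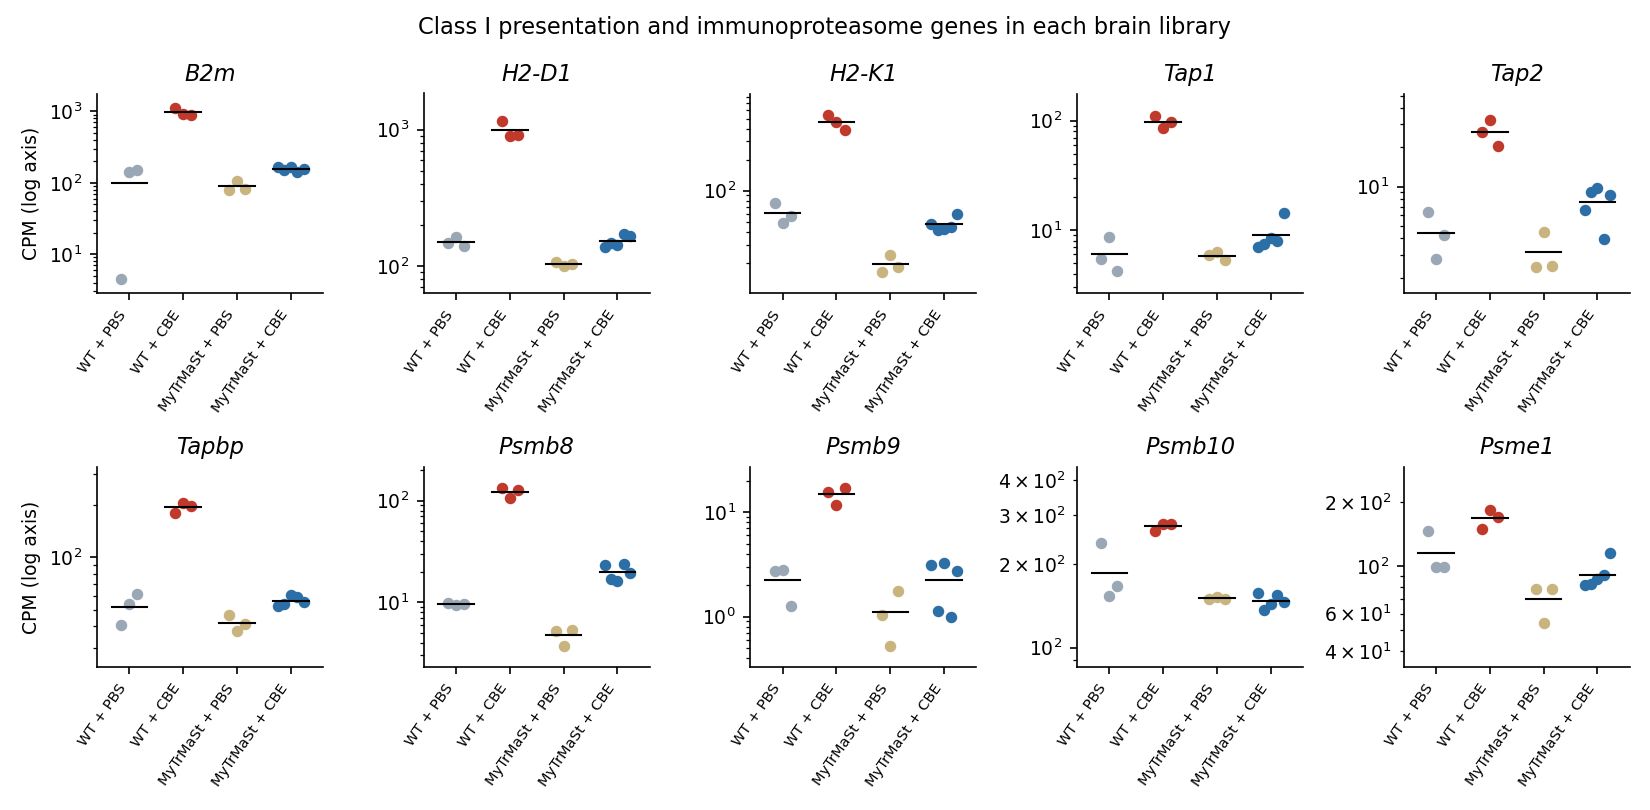
CPM of each of the 10 genes (log axis) in every library, grouped by genotype and treatment, with a bar at the group mean. In all 10 panels the 3 WT + CBE libraries sit above the WT + PBS and the MyTrMaSt + CBE libraries, and in *B2m* 1 WT + PBS library lies far below the others at 4.51 CPM.

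*H2-D1*, which encodes one classical heavy chain, was at 147.1, 163 and 140.5 CPM in WT + PBS and at 1154, 906.3 and 920.1 CPM in WT + CBE. In MyTrMaSt + PBS it was at 106.3, 100.4 and 103.6 CPM, and in MyTrMaSt + CBE at 137.5, 147.2, 141.8, 171.8 and 166.7 CPM. WT + CBE libraries stood clear of all others, and CBE-injected MyTrMaSt brains overlapped with WT + PBS. The elevation by CBE was 6.61-fold in WT (log2 2.72 ± 0.15 (SE), adjusted p = 1.53e-09). In MyTrMaSt it was 1.48-fold (log2 0.56 ± 0.13, adjusted p = 0.0113), which is below the 2-fold limit. The response differed between genotypes by -2.16 on the log2 scale (adjusted p = 2.06e-05), and *H2-D1* passed in all 22 alternatives of the processing. Its smaller response in MyTrMaSt lost the adjusted p limit without MyTrMaSt + PBS replicate 2 (0.0556) and with a replicate block (0.13).

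*H2-K1*, the other classical heavy chain of this strain, was at 75.8, 48.6 and 57 CPM in WT + PBS and at 546.4, 466.5 and 386.2 CPM in WT + CBE. It was at 16.2, 24 and 18.3 CPM in MyTrMaSt + PBS and at 47.5, 42.1, 42.2, 44.8 and 59.1 CPM in MyTrMaSt + CBE. All 3 MyTrMaSt + PBS libraries lay below every other library. CBE elevated *H2-K1* 7.88-fold in WT (log2 2.98 ± 0.21, adjusted p = 1.79e-08) and 2.39-fold in MyTrMaSt (log2 1.26 ± 0.20, adjusted p = 0.000514). Before any CBE, its level was 3.01-fold lower in MyTrMaSt + PBS than in WT + PBS (adjusted p = 0.0028). That call was lost in a fit to the PBS groups alone (log2 -1.6, adjusted p = 0.25) and with the *Xist* level as a covariate (log2 -1.59, adjusted p = 0.166), while the log2 difference stayed as large. The interaction was -1.72 on the log2 scale (adjusted p = 0.00523), and with the *Xist* covariate it was again -1.72, at an adjusted p of 0.0854.

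*B2m*, the light chain of all class I molecules, was at 4.51, 140.1 and 151.9 CPM in WT + PBS and at 1115, 927.9 and 893 CPM in WT + CBE. It was at 80.1, 105.9 and 83.1 CPM in MyTrMaSt + PBS and at 167.2, 152.1, 165.3, 143.8 and 157 CPM in MyTrMaSt + CBE. The value of 4.51 CPM rests on 5 counts in WT + PBS replicate 1. The *B2m* transcript has 41.2% GC, lower than that of the other 9 genes, which have 54.9% to 57.3%. In that library *B2m* differed from the mean of the other 2 by -4.88 on the log2 scale, far more than the median of the genes of lowest GC content given above, and the part of GC content in it was not tested. CBE elevated *B2m* 9.49-fold in WT (log2 3.25 ± 0.51, adjusted p = 0.000278), and without replicate 1 the log2 value was 2.76 (adjusted p = 2.05e-11). In a fit to the WT groups alone the adjusted p was 0.0652. In MyTrMaSt the log2 fold change was 0.81 (adjusted p = 0.287), with all 5 CBE libraries above all 3 PBS libraries. Still below 2-fold, it came under the adjusted p limit without WT + PBS replicate 1 (0.81, adjusted p = 6.05e-05) and in a fit to the MyTrMaSt groups alone (0.809, adjusted p = 0.00039). The interaction was -2.44 (adjusted p = 0.137) with all libraries and passed without WT + PBS replicate 1, at -1.95 (adjusted p = 3.78e-06).

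*Tap1*, the first subunit of the peptide transporter, was at 5.42, 8.57 and 4.22 CPM in WT + PBS and at 110.9, 86.4 and 96.4 CPM in WT + CBE. It was at 5.87, 6.34 and 5.28 CPM in MyTrMaSt + PBS and at 7.01, 7.51, 8.51, 7.88 and 14.5 CPM in MyTrMaSt + CBE. The 15.2-fold elevation in WT (log2 3.92 ± 0.28, adjusted p = 2.21e-08) was the largest among the 10 genes. In MyTrMaSt the log2 fold change was 0.63 (adjusted p = 0.183). The interaction of -3.29 (adjusted p = 0.0009) was also the largest in size among the 10. *Tap2*, the second subunit, was at 6.32, 2.76 and 4.22 CPM in WT + PBS and at 26.2, 32.4 and 20.5 CPM in WT + CBE. It was at 2.42, 4.49 and 2.47 CPM in MyTrMaSt + PBS and at 6.62, 9.01, 9.73, 3.94 and 8.61 CPM in MyTrMaSt + CBE. The rise in WT was 6.66-fold (log2 2.74 ± 0.35, adjusted p = 2.75e-05). The rise in MyTrMaSt was 2.37-fold (log2 1.24 ± 0.35, adjusted p = 0.0351) on 7 to 24 counts per library, the groups overlapped, and the call was lost in 7 of 22 alternatives, among them those without MyTrMaSt + PBS replicate 1 (adjusted p = 0.127) or 3 (0.164) and without MyTrMaSt + CBE replicate 2 (0.0813), 3 (0.0789) or 5 (0.0684). Its interaction did not pass (-1.49, adjusted p = 0.274), and a difference between *Tap1* and *Tap2* in it was not tested.

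*Tapbp* encodes tapasin, which holds class I molecules at the transporter. It was at 40.6, 53.9 and 61.2 CPM in WT + PBS and at 177.8, 205.1 and 197 CPM in WT + CBE. It was at 46.3, 37.5 and 41.2 CPM in MyTrMaSt + PBS and at 52.6, 53.7, 60.8, 59.1 and 55.2 CPM in MyTrMaSt + CBE. Its elevation in WT was 3.66-fold (log2 1.87 ± 0.16, adjusted p = 2.19e-07), the smallest of the 8 DE genes. The response in MyTrMaSt was 0.43 on the log2 scale (adjusted p = 0.0792), which came under the adjusted p limit in DESeq2 (0.0425), in a fit to the MyTrMaSt groups alone (0.037) and without WT + PBS replicate 1 (0.0138), and the interaction -1.44 (adjusted p = 0.00339), which with the *Xist* covariate was -1.56 and missed the limit (adjusted p = 0.0526).

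*Psmb8* encodes LMP7, the chymotrypsin-like immunosubunit. It was at 9.93, 9.40 and 9.70 CPM in WT + PBS and at 134.1, 105.1 and 127.1 CPM in WT + CBE. It was at 5.18, 3.698 and 5.28 CPM in MyTrMaSt + PBS and at 23.4, 16.9, 16.2, 23.6 and 19.6 CPM in MyTrMaSt + CBE. In contrast to *Tap1*, the 5 MyTrMaSt + CBE libraries lay above all PBS libraries of both genotypes. CBE elevated *Psmb8* 12.7-fold in WT (log2 3.66 ± 0.21, adjusted p = 3.16e-09) and 4.24-fold in MyTrMaSt (log2 2.08 ± 0.22, adjusted p = 7.51e-06), the latter being the largest value in MyTrMaSt among the 10. The interaction was -1.58 (adjusted p = 0.0302) and lost its call in 10 of 22 alternatives, at adjusted p values up to 0.195 and log2 values from -1.62 to -1.49. These included leaving out replicate 2 or 3 of WT + PBS, 1 or 3 of WT + CBE, 1 or 3 of MyTrMaSt + PBS, or 2 or 3 of MyTrMaSt + CBE. *Psmb9* encodes LMP2 and had the fewest counts, 3 to 10 in WT + PBS and 25 to 54 in WT + CBE. Its level was 2.71, 2.76 and 1.27 CPM in WT + PBS and 15.7, 11.7 and 16.9 CPM in WT + CBE, a 6.48-fold elevation (log2 2.70 ± 0.41, adjusted p = 0.000167). With the *Xist* level as a covariate the log2 value was 2.07 and the call was lost (adjusted p = 0.0502). With 2 to 8 counts per MyTrMaSt library, the response there (log2 1.07, 95% interval -0.02 to 2.16, adjusted p = 0.219) could not be told from 0 at this depth.

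*Psmb10* encodes MECL-1, the remaining immunosubunit. It was at 237.3, 153.9 and 167.1 CPM in WT + PBS and at 263, 278.8 and 279.6 CPM in WT + CBE. It was at 149.5, 152.7 and 149.7 CPM in MyTrMaSt + PBS and at 157.4, 136.3, 143.9, 154.6 and 146.4 CPM in MyTrMaSt + CBE. Its change in WT was 1.48-fold (log2 0.57 ± 0.15, adjusted p = 0.0217), below the 2-fold limit, and the adjusted p limit was lost without WT + PBS replicate 2 (0.0796) or 3 (0.0708) and without WT + CBE replicate 2 (0.0765) or 3 (0.0675), in a fit to the WT groups alone (0.174) and with the *Xist* covariate (0.0932), at log2 values of 0.455 to 0.632. In MyTrMaSt the log2 fold change was -0.03 with a 95% interval of -0.31 to 0.26. *Psme1*, the alpha subunit of the PA28 cap, was at 147.1, 99.5 and 99.6 CPM in WT + PBS and at 150.1, 183.5 and 171.7 CPM in WT + CBE. It was at 78, 53.9 and 78.2 CPM in MyTrMaSt + PBS and at 81.4, 82.2, 87.1, 91.1 and 115.5 CPM in MyTrMaSt + CBE. Its log2 fold changes of 0.56 in WT (adjusted p = 0.0755) and 0.39 in MyTrMaSt (adjusted p = 0.193) did not pass, and the interaction was -0.17 (95% interval -0.72 to 0.38). The WT value came under the adjusted p limit, still below 2-fold, without WT + PBS replicate 1 (0.765, adjusted p = 0.00406), on total counts (0.642, adjusted p = 0.0275) and with at least 10 counts required in every library (0.645, adjusted p = 0.0373). Both *Psmb10* and *Psme1* were lower in MyTrMaSt + CBE than in WT + CBE, by 1.85-fold (adjusted p = 0.000335) and 1.84-fold (adjusted p = 0.00452). In WT + PBS replicate 1 both read above the other 2 libraries of the group. In WT their 95% intervals of the log2 fold change ended at 0.89 and 0.97, whereas the lowest bound among the other 8 was 1.53.

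**Figure D2:**
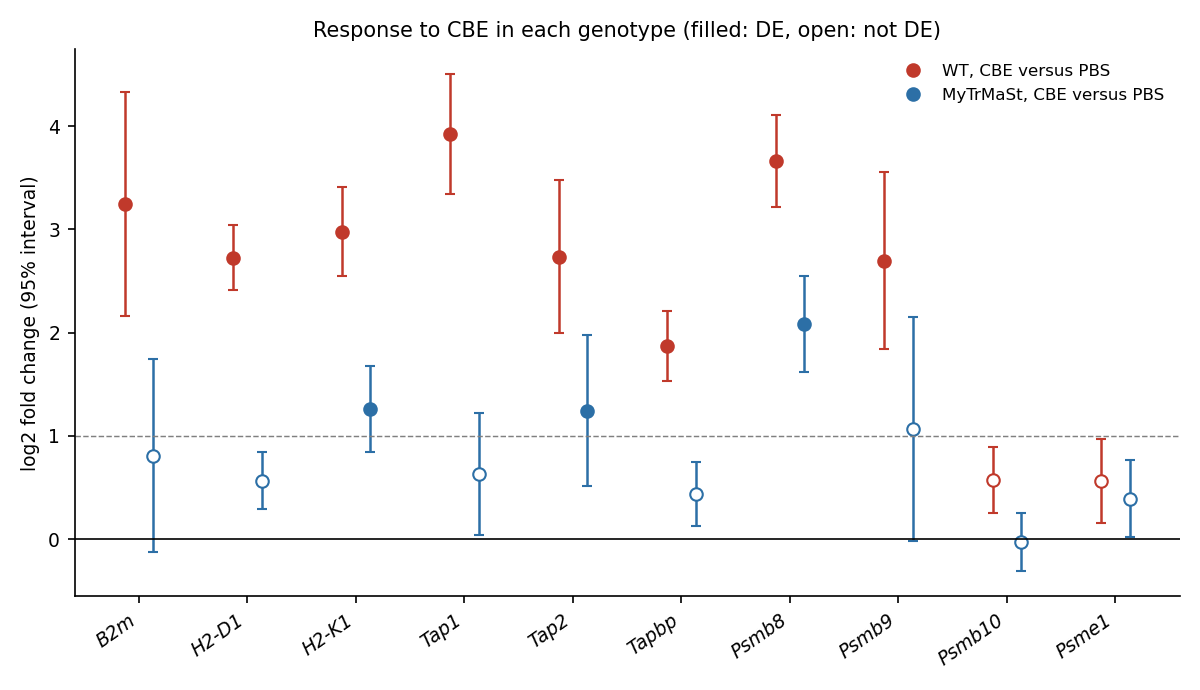
Log2 fold change of CBE over PBS with its 95% interval for each of the 10 genes in WT and in MyTrMaSt mice, with filled points for DE genes and a dashed line at 2-fold. WT values range from 0.56 to 3.92, and MyTrMaSt values range from -0.03 to 2.08.

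Direct comparison of the CBE groups gave an adjusted p below 0.05 for all 10 genes, against 2.35% of all genes that were lower at that limit. The differences were 10.7-fold for *Tap1* (adjusted p = 4.39e-09), 9.89-fold for *H2-K1* (3.71e-10), 6.50-fold for *H2-D1* (1.54e-10), 6.38-fold for *Psmb9* (4.95e-05), 6.23-fold for *B2m* (0.000645), 6.14-fold for *Psmb8* (3.49e-09), 3.44-fold for *Tap2* (0.000336) and 3.43-fold for *Tapbp* (7.12e-08). No MyTrMaSt + CBE library reached the lowest WT + CBE library in any of the 10 genes, against 6.02% of all genes separated in that direction. The library with Y-linked counts in each CBE group lay at the edge nearest to the other group in *H2-D1* and *Psmb8*. In *H2-D1* it was the lowest of WT + CBE at 906.3 CPM and the highest of MyTrMaSt + CBE at 171.8 CPM, and in *Psmb8* it was likewise the lowest at 105.1 CPM and the highest at 23.6 CPM. In *H2-K1* it lay within the range of the other libraries in both groups, at 466.5 and 44.8 CPM. In *Tap2* it lay at the far edges, as the highest of WT + CBE at 32.4 CPM and the lowest of MyTrMaSt + CBE at 3.94 CPM.

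In the PBS groups all 10 log2 differences were below 0, from -1.59 to -0.13, although that of *B2m* turned positive in limma voom and without WT + PBS replicate 2 or 3, and that of *Tap1* without WT + PBS replicate 2, and 5 of the 10 genes had MyTrMaSt + PBS libraries wholly below WT + PBS, against 10.1% of all genes. These 5 were *H2-D1* (log2 -0.54, adjusted p = 0.117), *H2-K1*, *Psmb8* (-1.04, adjusted p = 0.11), *Psmb10* (-0.29, adjusted p = 0.335) and *Psme1* (-0.71, adjusted p = 0.133). *H2-K1* was the one that passed in edgeR with all libraries. Below 2-fold, *H2-D1* came under the adjusted p limit in DESeq2 (0.0212), and *Psme1* did so in DESeq2 (0.0395) and without WT + PBS replicate 2 (0.0483). *B2m* read -0.20 (adjusted p = 0.858) with all libraries and -0.70 (adjusted p = 0.0285) without WT + PBS replicate 1. Sex was not balanced here, as given above.

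Each immunosubunit takes the place of 1 constitutive catalytic subunit, so their ratio within a library was compared by an exact permutation test (two-sided, 9 tests, Benjamini-Hochberg adjusted). These are ratios of 3'-end tags, not per length and not of protein, so only their differences between groups were read. The mean log2 ratio of *Psmb8* to *Psmb5* was -1.98 ± 0.77 (SD, n = 3) in WT + PBS and 1.83 ± 0.10 (n = 3) in WT + CBE. It was -2.93 ± 0.49 (n = 3) in MyTrMaSt + PBS and -0.95 ± 0.35 (n = 5) in MyTrMaSt + CBE. The 3 WT + CBE libraries lay above the other 11. The difference of 3.81 in WT had the smallest p that 3 against 3 allows (exact p = 0.1, adjusted p = 0.15), and that of 1.98 in MyTrMaSt the smallest that 3 against 5 allows (exact p = 0.0357, adjusted p = 0.0804). The mean log2 ratio of *Psmb9* to *Psmb6* was -7.67 ± 0.44 in WT + PBS and -5.05 ± 0.33 in WT + CBE without overlap, again at the smallest p that the design allows (exact permutation p = 0.1, adjusted p = 0.15, n = 3 each). In MyTrMaSt the groups overlapped (difference 0.59, exact p = 0.429), and the difference was 0.0993 without MyTrMaSt + PBS replicate 2 and 1.15 without replicate 3. The ratio of *Psmb10* to *Psmb7* differed by -0.37 in WT with all libraries and by 0.74 without WT + PBS replicate 1, where *Psmb7* was at 18.9 CPM against 126.8 and 136.3 CPM in the other 2. In MyTrMaSt it differed by -0.14 (exact p = 0.464). Between the CBE groups no MyTrMaSt + CBE library reached WT + CBE in any of the 3 ratios, with differences of -2.78 for *Psmb8* to *Psmb5*, -2.67 for *Psmb9* to *Psmb6* and -0.82 for *Psmb10* to *Psmb7*, each at the smallest p that 3 against 5 allows (exact p = 0.0357, adjusted p = 0.0804). The constitutive partners did not pass in either genotype, with log2 fold changes in WT of -0.24 for *Psmb5* (adjusted p = 0.673), -0.02 for *Psmb6* (0.963) and 0.46 for *Psmb7* (0.486), and in MyTrMaSt of 0.06 (0.926), 0.33 (0.27) and 0.09 (0.902). The signs of *Psmb5* and *Psmb6* in WT, and of *Psmb5* and *Psmb7* in MyTrMaSt, turned under some alternatives of the processing.

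**Figure D3:**
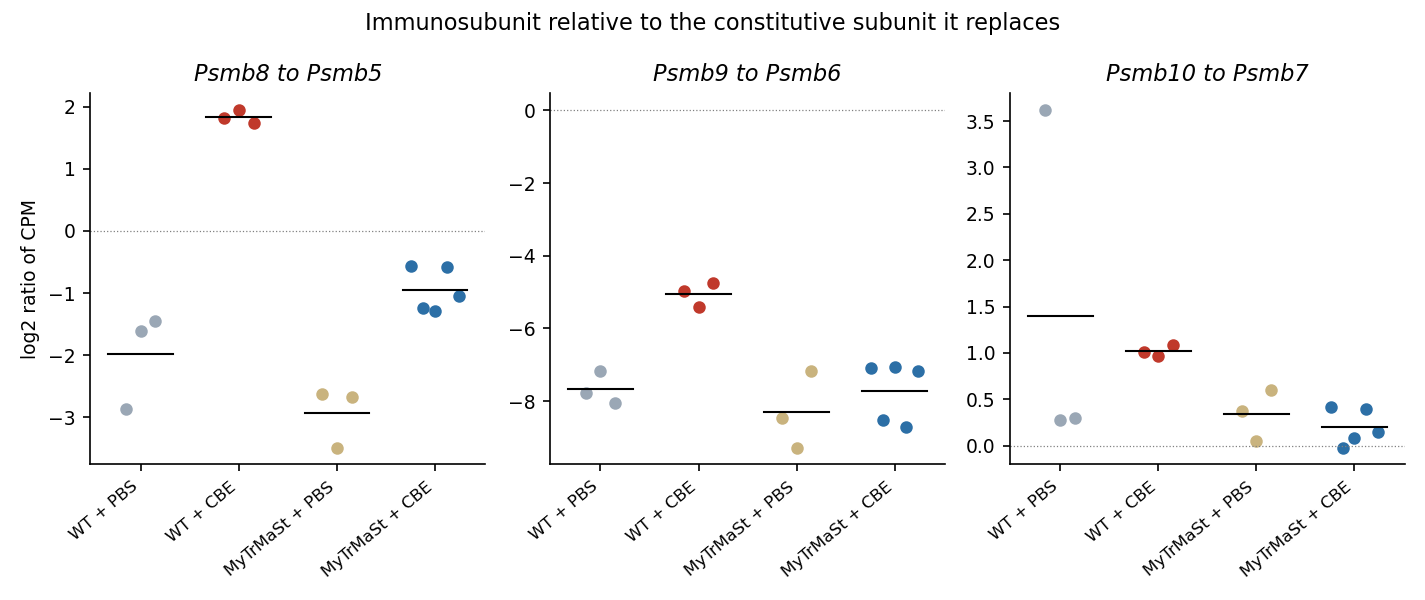
Log2 ratio of CPM (0.5 counts added) of each immunosubunit to the constitutive subunit it replaces, per library, with a bar at the group mean. For *Psmb8* to *Psmb5* the 3 WT + CBE libraries lie above 0 and the others below, and for *Psmb10* to *Psmb7* 1 WT + PBS library lies at 3.62, far from the other 2 at 0.28 and 0.29.

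Further genes of the pathway were read from lists of related function. Of the constitutive 20S core, 0 of 14 genes were DE in either genotype by edgeR, against 5.20% of all genes DE and higher in WT and 3.23% in MyTrMaSt. In a list of this length 0 lies near those shares. At an unadjusted p below 0.05 there were 0 in WT and 1 in MyTrMaSt, and the median log2 fold change was 0.07 in WT. The 4 with the lowest p in WT were *Psmb4* (0.22, adjusted p = 0.297), *Psma1* (0.39, adjusted p = 0.354), *Psma2* (0.78, adjusted p = 0.356) and *Psma5* (0.43, adjusted p = 0.368). Of 11 proteasome activators and assembly factors, 1 was DE in WT, against 5.20% of all genes that were DE and higher. This was *Psme2*, the beta subunit of the PA28 cap. *Psme2* was at 53.2, 35.4 and 44.3 CPM in WT + PBS and at 104.5, 93.9 and 87.4 CPM in WT + CBE (2.20-fold, adjusted p = 0.000709), and its log2 fold change in MyTrMaSt was 0.56 (adjusted p = 0.059), which came under the adjusted p limit in 5 of 23 alternatives (lowest 0.0142, without WT + PBS replicate 1). *Psme2b*, a close copy of *Psme2* whose reads may not be separated from it, read 1.10 (adjusted p = 0.0952, and 1.8 with adjusted p = 0.000537 without WT + PBS replicate 1), *Psme4* read 0.77 (adjusted p = 0.0909, and 1.25 with adjusted p = 0.0108 without WT + PBS replicate 2) and the inhibitor *Psmf1* 0.43 (adjusted p = 0.329) on the log2 scale. Of 11 tested genes of peptide trimming and loading, *Erap1*, which trims peptides in the endoplasmic reticulum, was DE in WT (log2 2.20 ± 0.52, adjusted p = 0.0102) and not in a fit to the WT groups alone (adjusted p = 0.0622). The cytosolic aminopeptidase *Npepps* fell by 0.52 on the log2 scale (adjusted p = 0.0319), less than 2-fold, and lost that in 9 of 23 alternatives. The loading factor *Tapbpl* read 0.95 (adjusted p = 0.166) and *Blmh* -0.47 (adjusted p = 0.202).

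Of 26 other class I and class I-like genes, 9 were listed and 4 tested. *H2-T23*, which encodes the ligand Qa-1, was at 8.12, 5.53 and 8.02 CPM in WT + PBS and at 37.5, 38 and 37.4 CPM in WT + CBE (log2 2.43, adjusted p = 1.73e-05), and its response in MyTrMaSt was 1.004 on the log2 scale (adjusted p = 0.0832), which passed without WT + PBS replicate 1 (1.02, adjusted p = 0.0387) or MyTrMaSt + CBE replicate 3 (1.17, adjusted p = 0.0371). *H2-M3*, which presents formylated peptides, rose 4.38-fold in WT (adjusted p = 0.00022) and read 0.82 on the log2 scale in MyTrMaSt (adjusted p = 0.142). *Hfe* and *Fcgrt*, class I-like proteins of iron and IgG handling, read 0.78 (adjusted p = 0.0962) and -0.11 (adjusted p = 0.825) in WT. Without WT + PBS replicate 1 *Hfe* came under the adjusted p limit (0.907, adjusted p = 0.0451) and *Fcgrt* turned positive. Of 7 tested genes of MHC class II presentation, 4 were DE and higher in WT and 2 in MyTrMaSt, against 5.20% and 3.23% of all genes. These were *Ifi30*, a lysosomal reductase (log2 3.25 in WT, adjusted p = 1.19e-06, and 2.24 in MyTrMaSt, adjusted p = 8.19e-05), *H2-DMb1*, a peptide editor (2.05, adjusted p = 0.00343, and 2.10, adjusted p = 0.00604), and, in WT, *H2-Ab1* (1.91, adjusted p = 0.0154) and *H2-Aa* (1.24, adjusted p = 0.0321), the class II chains. The WT call was lost in 6 of 22 alternatives for *H2-Aa*, in 4 for *H2-Ab1* and in 2 for *H2-DMb1*. *H2-Ab1* read 0.85 (adjusted p = 0.283) and *H2-Aa* -0.36 (adjusted p = 0.535) in MyTrMaSt. Between the CBE groups 3 of the 7 were DE and lower in MyTrMaSt + CBE, namely *Cd74* (log2 -1.49, adjusted p = 0.0131), *H2-Aa* (-1.34, adjusted p = 0.0199, lost in 4 of 22 alternatives) and *Ifi30* (-1.28, adjusted p = 0.00312). No class II gene had an interaction that passed in edgeR, where 2 had an unadjusted p below 0.05. Over all genes 0.413% passed with a smaller response in MyTrMaSt, so a count of 0 is near that share.

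Among 24 tested regulators of class I transcription, 6 were DE and higher in WT, 1 in MyTrMaSt and 6 were DE and lower in MyTrMaSt + CBE than in WT + CBE, against 5.20%, 3.23% and 1.93% of all genes. *Nlrc5*, the class I transactivator, had 0 to 3 counts per WT + PBS library and 14 to 40 in WT + CBE, which puts it at least 5.84-fold higher against a floor of 3 counts per library (adjusted p = 0.000175). It had at most 1 count in MyTrMaSt + PBS and 0 to 4 in MyTrMaSt + CBE. *Irf7*, a main inducer of type 1 IFN genes, was at 16.2, 8.57 and 7.17 CPM in WT + PBS and at 309.3, 207.9 and 255.5 CPM in WT + CBE (26.5-fold, adjusted p = 3.88e-08). In MyTrMaSt *Irf7* was at 1.04 to 3.52 CPM after PBS, below WT + PBS, and at 1.56 to 6.65 CPM after CBE, on 3 to 17 counts per library. Its log2 fold change there was 1.14 and did not pass, and its interaction was -3.59 on the log2 scale (adjusted p = 0.0317). *Stat2* (log2 1.66, adjusted p = 1.57e-05) and *Irf9* (2.87, adjusted p = 2.05e-07), which act downstream of the type 1 IFN receptor, were DE in WT. In MyTrMaSt their values were -0.04 (adjusted p = 0.924) and 0.54 (adjusted p = 0.185), and both interactions passed, at adjusted p values of 0.00521 and 0.0031. With the *Xist* level as a covariate both lost their call, at -1.5 for *Stat2* (adjusted p = 0.166) and -1.84 for *Irf9* (adjusted p = 0.136). The interaction of *Irf7* lost its call in 9 of 21 alternatives, at adjusted p values up to 0.458, and with that covariate it was -3.6 (adjusted p = 0.166). The sign of *Stat2* in MyTrMaSt turned without MyTrMaSt + PBS replicate 3. *Irf1* rose 2.79-fold in WT (adjusted p = 0.00829) and read 0.56 on the log2 scale in MyTrMaSt (adjusted p = 0.339). *Irf8*, a factor of myeloid cells, was DE in both genotypes, at 3.22 (adjusted p = 1.32e-05) and 1.96 (adjusted p = 0.00194), and its interaction did not pass (-1.26, adjusted p = 0.377). Between the CBE groups *Irf8* differed by -1.11 (adjusted p = 0.0294), a call lost in 6 of 22 alternatives, at -0.93 (adjusted p = 0.258) without WT + CBE replicate 2, and *Irf1* lost that call without the same library (adjusted p = 0.0576).

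**Figure D4:**
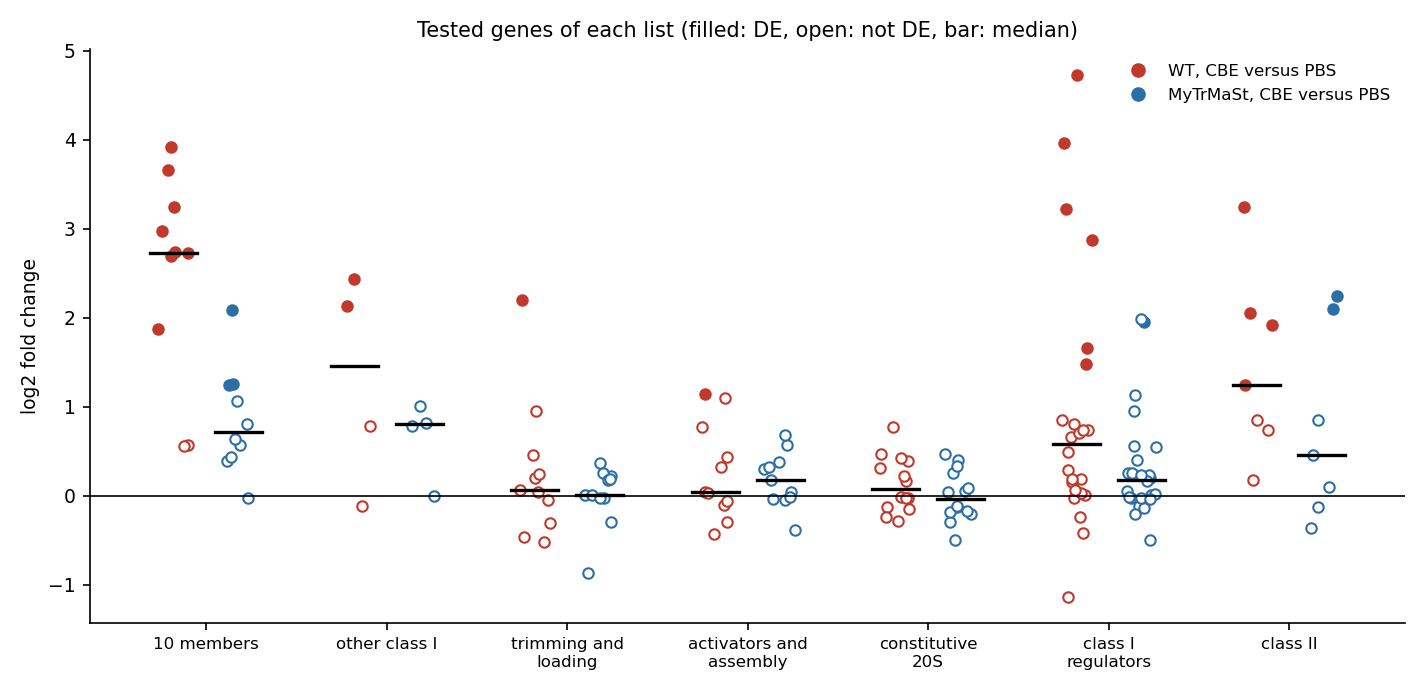
Log2 fold change of CBE over PBS for each tested gene of the lists, in WT and MyTrMaSt mice, with filled points for DE genes and bars at list medians. The 10 class I genes have medians of 2.73 in WT and 0.72 in MyTrMaSt, and the constitutive 20S genes lie around 0 in both.

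The sum of microglia markers also moved with CBE. In WT mice the 14 markers summed to 684.4 to 971.9 CPM after PBS and 3582 to 4129 CPM after CBE. In MyTrMaSt mice they summed to 574.1 to 615.3 CPM after PBS and 1997 to 2258 CPM after CBE. The largest parts of the sum were *C1qa*, *C1qb* and *C1qc*, with means of 1294, 857.3 and 543.6 CPM in WT + CBE. Not all markers rose. Means of *P2ry12* were 22.5 and 25.6 CPM in WT and 41.4 and 29.5 CPM in MyTrMaSt, after PBS and CBE. Those of *Siglech* were 7.70 and 8.32 CPM in WT and 9.66 and 8.59 CPM in MyTrMaSt. Of the 14, 9 were DE and higher in WT and 8 in MyTrMaSt, against 5.20% and 3.23% of all genes. Between the CBE groups 3 of the 14, *Aif1*, *C1qa* and *C1qc*, were DE and lower in MyTrMaSt + CBE, against 1.93% of all genes, 5 were lower by adjusted p, and the median log2 difference of the 14 was -0.60. *Trem2* was DE and lower in MyTrMaSt + PBS than in WT + PBS (log2 -1.29, adjusted p = 0.0114). The interaction passed in edgeR for 0 of the 14, near the 0.413% of all genes with a smaller response in MyTrMaSt, and 4 had an unadjusted p below 0.05. The 10 class I genes summed to 676.8 to 696.5 CPM and 3109 to 3693 CPM in WT, and to 488.9 to 491 CPM and 648.2 to 745.3 CPM in MyTrMaSt, after PBS and CBE respectively. Divided by the microglia sum of the same library, this gave 0.696 to 0.997 after PBS and 0.813 to 0.894 after CBE in WT. In MyTrMaSt it gave 0.798 to 0.852 after PBS and 0.31 to 0.34 after CBE, the lowest values of the 14 libraries. The part of microglia in the class I result was not tested. Of 15 markers of T and NK cells 3 were listed, and of these *Cd3e* reached 6 counts and *Nkg7* 7 in a WT + CBE library, while *Cd4* had at most 25 counts in any library. The T cell markers *Cd3d* and *Cd8a* were not listed. The 10 markers of endothelial cells gave sums of 363.2 to 457.5 CPM in PBS-injected and 307.9 to 387.3 CPM in CBE-injected WT brains, which overlapped. In MyTrMaSt the sums were 346.7 to 393.4 CPM after PBS and 280.2 to 346.5 CPM after CBE, without overlap, and of 9 tested markers 2 were lower and 1 higher by adjusted p, with *Tek* DE and lower (log2 -1.35, adjusted p = 0.00442). Markers of other brain cells were read in the same way. In WT the 7 astrocyte markers summed to 2502 to 3209 CPM after PBS and 3833 to 4140 CPM after CBE, with *Gfap* and *Aqp4* DE, and in MyTrMaSt to 3066 to 3489 and 4130 to 4449 CPM, with *Gfap* DE. *Gfap* had a log2 fold change of 3.31 in both genotypes. The 6 oligodendrocyte markers summed to 16660 to 19980 CPM after PBS and 10080 to 13100 CPM after CBE in WT, where 5 of the 6 were lower by adjusted p and 0 by 2-fold. In MyTrMaSt they summed to 16490 to 19780 and 12390 to 16620 CPM, which overlapped, and 0 of the 6 passed by adjusted p. The 8 neuron markers summed to 4766 to 5158 CPM and 3670 to 4003 CPM in WT, and to 5012 to 5849 and 4033 to 4755 CPM in MyTrMaSt. By adjusted p 3 of the 8 were lower in WT and 1 in MyTrMaSt. Of 4 choroid plexus markers 0 passed by adjusted p in either genotype. The part of these cells in the class I result was not tested.

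**Figure D5:**
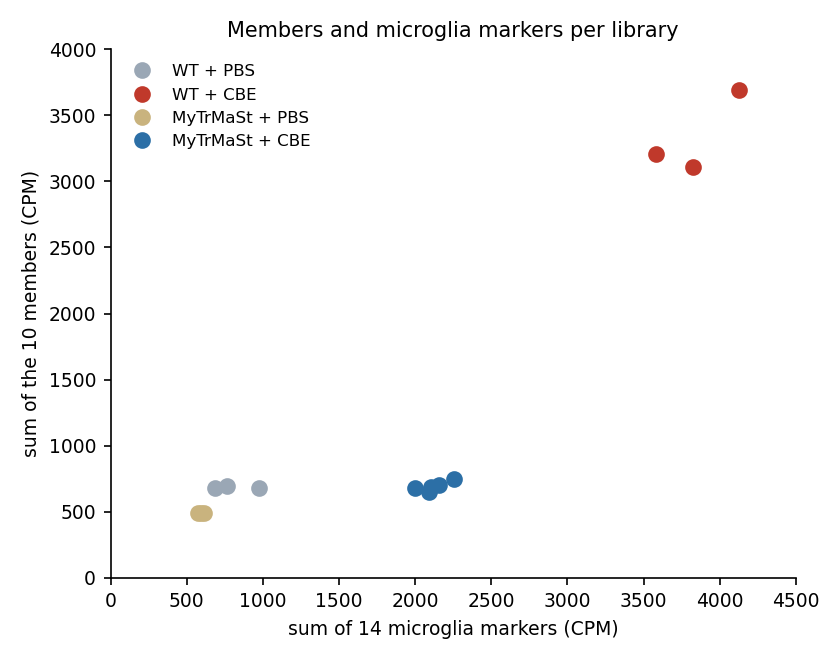
Sum of the 10 class I genes against the sum of 14 microglia markers, in CPM, with 1 point per library. The MyTrMaSt + CBE libraries lie at 1997 to 2258 CPM of microglia markers and 648.2 to 745.3 CPM of class I genes, and the WT + CBE libraries lie above them on both axes.

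The 5 genes outside the lists whose group differences were nearest to the median of the 10, measured as the Euclidean distance over 3 log2 differences from WT + PBS, were *Ccl19*, *Parp10*, *Ifi35*, *Trim14* and *Trim12a*. The median of the 10 was 2.73 for WT + CBE, and for the null mice -0.44 after PBS and 0.06 after CBE. *Parp10* lay at a distance of 0.166 and *Ifi35* at 0.204, with WT log2 fold changes of 2.88 (adjusted p = 2.53e-06) and 2.91 (adjusted p = 5.04e-07). Both interactions passed, at -2.48 for *Parp10* (adjusted p = 0.0251) and -2.48 for *Ifi35* (adjusted p = 0.00614). These values follow from the choice of the genes by likeness and are no separate result. *Ccl19*, a chemokine for T and dendritic cells, lay nearest at 0.164 but had counts at or near the floor in the MyTrMaSt groups. The likeness rests on 4 group means.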

How the data were processed

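RNA from brain homogenates was made into libraries by a bulk variation of MARSseq, which tags transcript 3' ends, and sequenced on a NextSeq 500. The authors mapped reads to mm10 with hisat 0.1.6, kept uniquely mapping reads and deposited whole-number counts per gene; their processing notes also name cutadapt and HTSeq. Annotation, use of strand and use of molecular identifiers are not given in the sources used here. Every listed gene reached 6 counts in some library. Deposited normalized values and the authors' own fold changes and p-values for CBE against PBS were not used.

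Genes were filtered with filterByExpr and fitted with edgeR 4.0.16 (R 4.3.3; TMM, 4 group means, all 14 libraries, quasi-likelihood F test, Benjamini-Hochberg adjustment over 11852 genes). Intervals are approximate 95% intervals for the log2 difference of group means, from the SE of that fit. DESeq2 1.42.0, limma 3.58.1 (voom), other scalings, filters and subsets, a replicate block, an *Xist* covariate and leaving out each library were alternatives. The fit was also run on simulated data as a check of the code, and that outcome is not used here. The 10 genes and the lists were chosen with earlier results of these data known. From each list the 4 genes with the lowest p in WT were named, with *Psmb5*, *Psmb6*, *Psmb7*, *Psme2*, *Nlrc5* and *Irf1* always; *Cd74* and the cell type markers named were chosen after their values were seen. The values of 1 further listed gene are not reported here, and it was left out of the list counts. Replicate numbers did not pair the samples: same-number deviations correlated at -0.173 to 0.16, over 0.1 in 3 of 18 pairs. No pair of libraries of a group agreed within sampling noise (chi-square over degrees of freedom of at least 2.35 in 19 pairs).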

Additional observations from a re-analysis of the deposited data

Results flagged for a closer look

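The genotype by treatment interaction passed in edgeR for 8 of the 39 genes screened, against 0.413% of all genes. In all 8 the response to CBE was smaller in MyTrMaSt than in WT. *Parp10* and *Ifi35*, given above, also passed but were outside this screen. *Irf7*, *Irf9* and *Stat2* were named for a low p in WT. That comparison is part of the interaction, so the count is not independent of the choice of genes. On the log2 scale the interaction was -2.16 for *H2-D1*, -1.72 for *H2-K1*, -3.29 for *Tap1*, -1.44 for *Tapbp* and -1.58 for *Psmb8*. Among regulators it was -3.59 for *Irf7*, -2.33 for *Irf9* and -1.7 for *Stat2*. With the *Xist* level as a covariate *H2-D1* and *Tap1* still passed and the other 6 did not. Their log2 values with it were -1.72 for *H2-K1* (adjusted p = 0.0854), -1.56 for *Tapbp* (0.0526), -1.62 for *Psmb8* (0.195), -3.6 for *Irf7* (0.166), -1.84 for *Irf9* (0.136) and -1.5 for *Stat2* (0.166).

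In the group of 5 MyTrMaSt + CBE libraries, a single library lay far from the other 4 in 4 of 39 genes screened, where chance gives about 1 in 20. *Tap1* was at 14.5 CPM in replicate 5 against 7.01 to 8.51 CPM in the others. *Psme1* was at 115 CPM in the same replicate against 81.4 to 91.1 CPM. *Psmb4* was at 644 CPM in replicate 3 against 717 to 741 CPM, and *Psma2* at 206 CPM in replicate 4 against 180 to 187 CPM.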

How the results depend on the processing

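With scaling by RLE or by total counts, in DESeq2 and with no filter the counts of DE genes were those of the main analysis; limma voom gave 2 in MyTrMaSt. With at least 10 counts required in every library, 6 of the 10 genes were left to test, and 4 were DE in WT and 4 between the CBE groups. The PBS difference of *H2-K1* left 0 DE genes in a fit to the PBS groups alone and 0 with the *Xist* covariate, and that covariate left 2 interactions, *H2-D1* and *Tap1*. Leaving out 1 library gave 8 to 8 DE genes in WT, 2 to 3 in MyTrMaSt, 8 to 8 between the CBE groups and 1 to 1 between the PBS groups. The interaction passed for 4 to 7 genes, the 7 being without WT + PBS replicate 1, which added *B2m* and *Psmb10*. With a replicate block the counts were 8 in WT, 2 in MyTrMaSt, 9 between the CBE groups, 1 between the PBS groups and 4 interactions; samples with the same number share only that number.

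Signs turned for values near 0 or resting on WT + PBS replicate 1, and the cause was not tested. The PBS difference of *B2m* was 0.453 in limma voom, and ranged from -0.703 to 0.173 on leaving out 1 library. That of *Tap1* ranged from -0.373 to 0.334. On leaving out 1 library *Psmb6* in WT ranged from -0.171 to 0.282, *Psmb5* from -0.491 to 0.307 in WT and from -0.0121 to 0.191 in MyTrMaSt, *Psmb7* in MyTrMaSt from -0.025 to 0.271, *Fcgrt* in WT from -0.281 to 0.0469, *Stat2* in MyTrMaSt from -0.0998 to 0.0389 and the *H2-DMb1* interaction from -0.3 to 0.416. *Psmb6* in WT read 0.0713 on total counts, 0.0409 in limma voom, 0.0703 with at least 10 counts, 0.00287 with the replicate block and 0.091 with the *Xist* covariate. *Fcgrt* in WT read 0.000502 with that covariate, and the *H2-DMb1* interaction -0.0139 on total counts and -0.0353 in limma voom. The WT log2 ratio of *Psmb10* to *Psmb7* ranged from -0.931 to 0.737 without 1 library. *Nlrc5* and *Psmb9* are limited by counts under 10 in most libraries.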
